A study of Mus musculus with 24 samples.

Results

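The genes of de novo purine and pyrimidine nucleotide synthesis were followed on mouse expression arrays after spermidine was given back to polyamine-depleted fibroblasts. The list held 10 gene symbols, and 9 of them were matched to an array probe set by the platform annotation, out of 19938 genes tested in all. Ppat, Gart, Paics, Adsl, Atic and Gmps belong to the purine pathway, and Cad, Umps and Ctps to the pyrimidine pathway. Impdh2, the remaining symbol, had no probe set in that annotation and was not analysed here. Each of the 9 had 1 probe set, so no choice between probe sets was made for them.

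All cells were NIH3T3, an immortalised mouse embryonic fibroblast line, and all had been kept for 96 h in 1 mM DFMO (difluoromethylornithine), which inactivates ornithine decarboxylase and so stops the making of putrescine. Cells labelled 0 min received no spermidine. The other groups received 10 µM spermidine, with 1 mM aminoguanidine to limit its oxidation, and were collected early (30 and 60 min), at intermediate times (120 and 240 min) or late (360, 480 and 600 min). The labels do not say whether cells at 0 min also received aminoguanidine. Each of the 8 time points had 3 arrays labelled as biological replicates of this single line, 24 in all. No group was kept in DFMO alone for the same hours, so spermidine, handling and time in culture cannot be told apart in comparisons with 0 min. Between later times, time after spermidine and time in culture cannot be told apart either.

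Purine synthesis builds the ring step by step on phosphoribosyl pyrophosphate (PRPP), beginning with the amidotransferase encoded by Ppat and ending at inosine monophosphate, from which separate branches lead to AMP and GMP. Pyrimidine synthesis makes the ring first, by the multifunctional Cad protein and Dhodh, and Umps then joins it to PRPP to give UMP, which is the source of CTP. Dividing cells rely on both pathways for RNA and DNA precursors.

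Array medians lay between 4.4 and 4.45 on the log2 scale, and precision is limited by having 3 arrays per time. Fibroblast markers were present, with means of 12.72 for Vim, 12.48 for Fn1 and 11.51 for Col1a2 although Lum (3.94) and Postn (4.10) were low. Defining markers of macrophages (Ptprc, 3.75), epithelium (Epcam, 3.84), endothelium (Pecam1, 3.84), adipocytes (Adipoq, 4.09) and muscle (Myod1, 3.90) lay below the array medians. Above them lay Lyz2 (7.40) and Cd68 (4.52) of the macrophage list, Krt14 (7.71) and Cdh1 (4.60) of the epithelial list and Acta1 (4.94) of the muscle list. Over the arrays, the mean of the 6 macrophage markers ranged from 4.50 to 4.69. That of the 9 fibroblast markers ranged from 8.47 to 8.80, with 0 min at 8.50 to 8.69 and 600 min at 8.68 to 8.72. Replicate 3 labelled 120 min and replicate 3 labelled 240 min stood apart from their labelled times: on the first principal component the former lay at 2.61 (both others at -12.2) and the latter at -13.2 (the others at 2.07 and 1.49). Each thus lay beside the arrays of the other's labelled time. Whether their labels were exchanged was not tested. Both displaced arrays were kept under their labels, so every value printed for 120 or 240 min is by label. For the 9 genes, values without them are given where a call changes and for called steps from 240 to 360 min.

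The promoters of 4 of the genes are shown, and their part in the time courses was not tested. Ppat and Paics start 276 bases apart on opposite strands, with their first bases overlapping, and Gmps and Umps had the most alike time courses of all pairs. Each window runs from 250 bases before to 50 bases after a RefSeq start, on the gene's strand in build GRCm38.p6. For Gmps that start lies inside the gene's RefSeq span, which begins at chr3:63963633. Those of Ppat (chr5:76951529-76951828, minus strand), Paics (chr5:76951052-76951351, plus strand), Gmps (chr3:63975893-63976192, plus strand) and Umps (chr16:33966989-33967288, minus strand) read as follows, with matches to an E-box, E2F or CCAAT motif in capitals.
Ppat: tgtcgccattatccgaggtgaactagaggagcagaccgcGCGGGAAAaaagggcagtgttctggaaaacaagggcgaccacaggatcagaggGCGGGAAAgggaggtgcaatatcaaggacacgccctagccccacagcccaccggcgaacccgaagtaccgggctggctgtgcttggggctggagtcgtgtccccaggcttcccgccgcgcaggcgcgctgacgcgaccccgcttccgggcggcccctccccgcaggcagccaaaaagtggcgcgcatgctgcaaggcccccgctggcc
Paics: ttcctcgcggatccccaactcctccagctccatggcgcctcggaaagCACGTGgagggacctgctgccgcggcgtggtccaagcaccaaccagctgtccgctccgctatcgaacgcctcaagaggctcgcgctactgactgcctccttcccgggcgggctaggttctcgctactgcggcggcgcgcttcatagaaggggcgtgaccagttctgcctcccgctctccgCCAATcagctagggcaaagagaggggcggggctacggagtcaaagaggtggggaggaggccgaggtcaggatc
Gmps: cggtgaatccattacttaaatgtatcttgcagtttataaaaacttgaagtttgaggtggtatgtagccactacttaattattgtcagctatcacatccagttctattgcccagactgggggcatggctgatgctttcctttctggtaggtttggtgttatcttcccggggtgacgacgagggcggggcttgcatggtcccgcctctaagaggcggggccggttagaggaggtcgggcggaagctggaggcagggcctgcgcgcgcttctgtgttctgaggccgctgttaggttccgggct
Umps: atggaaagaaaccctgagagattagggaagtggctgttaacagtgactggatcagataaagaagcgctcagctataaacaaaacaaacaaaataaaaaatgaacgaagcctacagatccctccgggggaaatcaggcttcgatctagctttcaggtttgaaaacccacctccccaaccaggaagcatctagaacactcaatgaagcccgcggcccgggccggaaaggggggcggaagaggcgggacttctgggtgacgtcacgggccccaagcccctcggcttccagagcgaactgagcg
The motifs were searched on both strands as letters: the E-box CACGTG, bound by Myc and its relatives, the E2F motif as TTTCCCGC, TTTGGCGC, TTTCGCGC or TTTGCCGC, the CCAAT box as CCAAT, the GC box as GGGCGG, the ATF4 element as TGATGCAA, and the NRF1 motif. All 10 genes, Impdh2 included, had at least 1 promoter in the RefSeq table. Ctps had a second start there, whose window held no match to any of these motifs. A gene was counted when any of its windows matched, while the shares of mouse promoters are per window. The E2F letters were found in Ppat only among them, at positions -211 and -158 from the start, the latter overlapping a GC box; 2.26% of 32851 mouse promoters of that length hold them. The E-box was found in 3 of the 10, Paics, Atic and Impdh2, against 7.15% of promoters. A CCAAT box was found in 4 of 10 (37.4% of promoters), a GC box in all 10 (35.7%), the NRF1 letters in Ctps alone (0.971%) and the ATF4 element in 0 (0.895%). These are letter matches in short windows, and no binding was measured.

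After spermidine the 9 genes did not move as a block. From 360 min Gmps and Umps rose, Ppat rose at 360 min only, Adsl and Ctps fell, and Gart, Paics, Atic and Cad did not pass the test against 0 min at any time. The changes were small, the largest being a 1.40-fold rise of Gmps at 360 min. A gene was called when its moderated two-sided test in limma had a Benjamini-Hochberg adjusted p under 0.05 over all genes. By that rule 0 of 9 were called at 30, 60, 120 and 240 min (3, 0, 3 and 1 at an unadjusted p under 0.05), when 0.015%, 0.0251%, 0.471% and 3.06% of all genes were called in either direction. At 360 min 3 rose and 2 fell, where 8.47% of all genes rose and 10.5% fell. At 480 min 2 rose and 1 fell (9.73% and 14.5% of all genes), and at 600 min 2 rose and 2 fell (11.2% and 15.7%). The median change of the 9 was -0.0040 at 360 min, -0.01 at 480 min and -0.05 at 600 min, against 8.3e-06, 0.0020 and 0.0055 over all genes. Between neighbouring times 3 of 9 rose from 240 to 360 min and 0 fell (4.25% and 1.8% of all genes). The other steps had 0 of 9 called, with 0, 3, 1, 2 and 1 at an unadjusted p under 0.05 in order of time, where 0.0451%, 0.411%, 0%, 0.612% and 0.181% of all genes were called. Tested over the whole time course by limma's F-test, 5 of 9 varied with time, against 30.9% of all genes. In whole-culture RNA, fewer cells with a transcript and less of it per cell cannot be told apart.

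**Figure D1:**
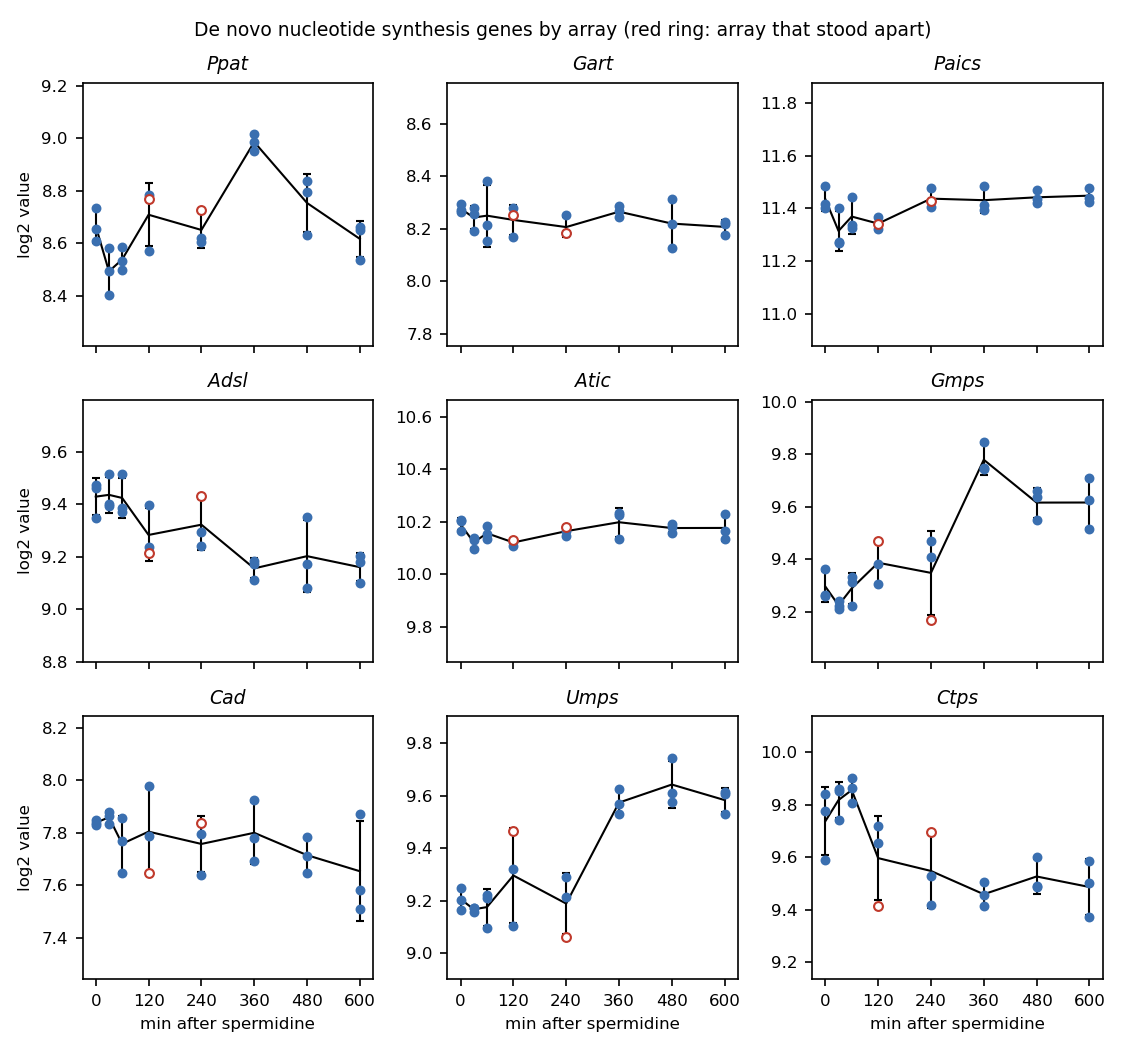
Deposited log2 values (vertical axis, each panel spanning 1 log2 unit) of the 9 genes on 24 arrays against minutes after spermidine. Dots are arrays, red rings replicate 3 of 120 and of 240 min, and lines join means with SD bars (n = 3). Ppat peaks at 360 min, Gmps and Umps step up between 240 and 360 min, Adsl and Ctps drift down, and the means of Gart, Paics and Atic span at most 0.13.

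Ppat encodes the amidotransferase that commits PRPP to purine synthesis. Its log2 values at 0 min were 8.61, 8.65 and 8.74, and at 30 min 8.58, 8.49 and 8.40. The 30 min arrays all lay below those at 0 min, but the difference of -0.17 ± 0.06 (SE) did not pass the test (limma adjusted p = 0.802). From 60 to 240 min the arrays ranged from 8.50 to 8.79. At 360 min the values were 9.02, 8.99 and 8.95, above every other array of the series, a rise of 0.32 ± 0.06 (adjusted p = 9.77e-04) or 1.25-fold over 0 min. Against 240 min the rise was 0.33 ± 0.06 (adjusted p = 0.00381), and 0.37 with both displaced arrays left out (adjusted p = 0.00439). At 480 min the values had spread to 8.79, 8.84 and 8.63 and at 600 min they were 8.65, 8.54 and 8.66, overlapping 0 min. The fall from 360 to 600 min, a comparison chosen after the values were seen, was -0.37 ± 0.06 (adjusted p = 0.00122), while 2.54% of all genes rose and 3.43% fell there, and no other member was called (2 of 9 at an unadjusted p under 0.05, Ppat included).

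Gart and Paics carry the next steps of the ring. Gart encodes a trifunctional enzyme and stayed between 8.13 and 8.38 on all 24 arrays, with time means from 8.21 to 8.28. Its 95% confidence intervals against 0 min ran from -0.18 to 0.09 over the 7 times. Son, which starts 852 bases away on the other strand, was at 0.01 ± 0.05 at 360 min and -0.02 ± 0.05 at 600 min (adjusted p = 0.918, then 0.832). Paics, the bifunctional carboxylase and ligase that shares its start region with Ppat, had values of 11.40, 11.42 and 11.48 at 0 min and 11.39, 11.41 and 11.49 at 360 min. These overlapped throughout, and the difference was 0.00 ± 0.04 with an interval from -0.09 to 0.08 (adjusted p = 0.973). Ppat and Paics had a Pearson r of 0.38 over the 24 arrays, which share their time course.

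Adsl and Atic act late in building the ring, and Adsl also on the branch to AMP. Adsl, adenylosuccinate lyase, had values of 9.48, 9.46 and 9.35 at 0 min and between 9.21 and 9.51 from 30 to 240 min. At 360 min they were 9.17, 9.11 and 9.18, all lower, a fall of -0.27 ± 0.07 (adjusted p = 0.00586). At 600 min they were 9.10, 9.20 and 9.18, again all lower (-0.27 ± 0.07, adjusted p = 0.00432). At 480 min the arrays overlapped those at 0 min (9.35, 9.08 and 9.17). The change of -0.23 ± 0.07 (adjusted p = 0.0161) lost its call when replicate 1 or 2 of 0 min was left out (adjusted p = 0.0673 and 0.0618), and likewise replicate 2 or 3 of 480 min (0.114 and 0.0568). Atic, which closes the purine ring, spanned only 10.10 to 10.23 over all arrays, and its intervals against 0 min ran from -0.14 to 0.07.

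Gmps, GMP synthetase, makes GMP on the guanine branch and had the largest rise of the members at 360 min. Its values were 9.27, 9.26 and 9.36 at 0 min and 9.41, 9.47 and 9.17 at 240 min. The low array at 240 min is the one that stood apart there, and the change from 0 min was 0.05 with it (adjusted p = 0.801) and 0.14 with both displaced arrays left out (adjusted p = 0.149). At 360 min all 3 arrays were higher, at 9.74, 9.75 and 9.85, a rise of 0.48 ± 0.07 (adjusted p = 3.70e-05). Gmps was at 9.66, 9.64 and 9.55 at 480 min (0.32 ± 0.07, adjusted p = 9.50e-04) and at 9.62, 9.52 and 9.71 at 600 min (0.32 ± 0.07, adjusted p = 8.11e-04). The step from 240 to 360 min was 0.43 ± 0.07 (adjusted p = 0.00107), and 0.34 with those arrays left out (adjusted p = 0.00152). Every array from 360 min on lay above every array at 0 min.

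Of the pyrimidine genes Cad, which encodes the multifunctional enzyme of the initial steps, did not pass the test at any time. Its arrays were tight at 0 min (7.85, 7.84 and 7.83) and wide at 600 min (7.87, 7.51 and 7.58), overlapping. The change at 600 min was -0.18 ± 0.09, with an unadjusted 95% interval from -0.37 to -0.0014 (adjusted p = 0.140). With replicate 1 of 600 min left out it was called (-0.29, adjusted p = 0.0128). At 360 min its interval ran from -0.22 to 0.14.

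Umps, UMP synthase, catalyses both last steps to UMP. At 0 min its values were 9.25, 9.20 and 9.17 and at 360 min 9.57, 9.53 and 9.62, all higher (0.37 ± 0.07, adjusted p = 8.15e-04). It stayed up at 480 min (9.74, 9.58 and 9.61, a rise of 0.44 ± 0.07, adjusted p = 9.43e-05) and at 600 min (9.61, 9.61 and 9.53, a rise of 0.38 ± 0.07, adjusted p = 3.40e-04). The highest array before 360 min was replicate 3 of 120 min at 9.46 and the lowest was replicate 3 of 240 min at 9.06, the pair that stood apart. The step from 240 to 360 min was 0.38 ± 0.07 (adjusted p = 0.00331), and 0.32 without them (adjusted p = 0.00526).

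Ctps, CTP synthase, amidates UTP to CTP. Its values of 9.84, 9.78 and 9.59 at 0 min were spread more widely than those at 360 min (9.41, 9.46 and 9.51), all of which were lower, by a fall of -0.28 ± 0.08 (adjusted p = 0.0181). At 600 min they were again all lower (9.37, 9.59 and 9.50, a fall of -0.25 ± 0.08, adjusted p = 0.0244), while at 480 min they overlapped 0 min (9.49, 9.49 and 9.60) and were not called (-0.21 ± 0.08, adjusted p = 0.0655). Arrays at 30 and 60 min lay between 9.74 and 9.90, and those at 120 and 240 min between 9.42 and 9.72. The calls rested on few arrays. Leaving out replicate 1 or 2 of 0 min ended the call at 360 min (adjusted p = 0.10 and 0.0682) and the call at 600 min (0.124 and 0.0835). So did leaving out replicate 1 of 360 min (0.0677) for the former and replicate 1 of 600 min (0.120) for the latter. The opposite held at 480 min, where Ctps was called with replicate 3 of 0 min (0.0202), of 120 min (0.0344) or of 240 min (0.0453) left out. With both displaced arrays left out, Ctps was called lower at 240 min (-0.26, adjusted p = 0.0234, and 0.0526 with a replicate block) and at 480 min (-0.21, 0.0173).

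**Figure D2:**
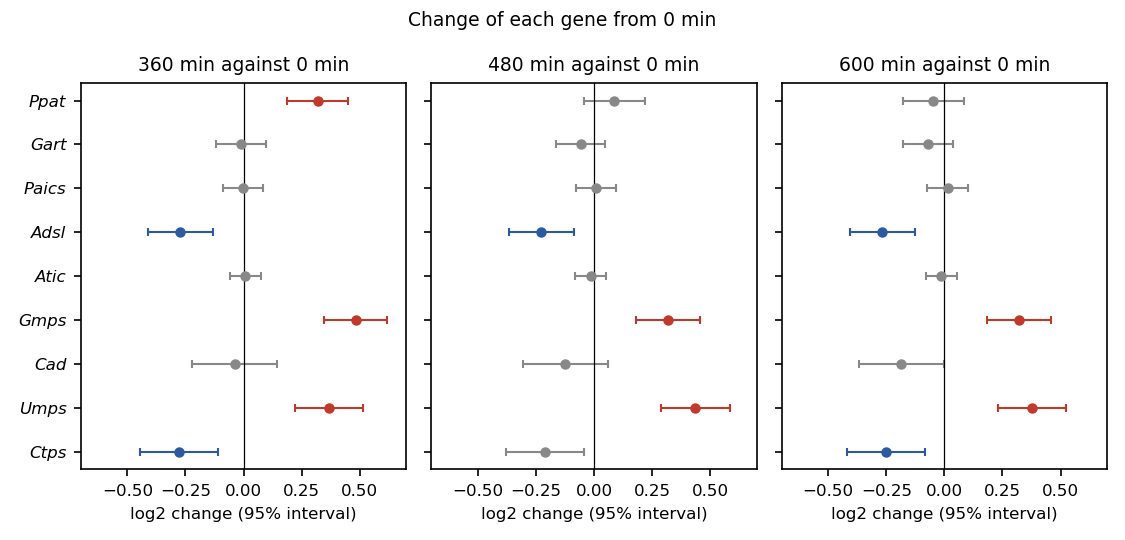
Log2 change from 0 min (horizontal axis) with its 95% confidence interval for each gene at 360, 480 and 600 min, from limma on 24 arrays. Red points passed the test as higher, blue as lower, and grey did not pass. Gmps and Umps are higher and Adsl lower at all 3 times, Ppat is higher at 360 min only, and Ctps is lower at 360 and 600 min.

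A comparison of 360, 480 and 600 min with 30, 60 and 120 min leaves the 0 min arrays out. From here on late and early mean these times, so early includes 120 min with its displaced array. In it 5 members were higher and 2 lower, where 16.4% of all genes were higher and 19.4% lower. Gmps (0.37 ± 0.04, adjusted p = 1.10e-07) and Umps (0.39 ± 0.04, 1.63e-07) led, and in both every late array lay above every early one, as in 4.15% of all genes. Ppat (0.21), Adsl (-0.21) and Ctps (-0.27) were called in the direction they had against 0 min (adjusted p = 1.04e-04, 1.75e-04 and 8.88e-05). Ctps no longer depended on single arrays here, with an adjusted p of at most 2.92e-04 whichever array was left out. Paics was higher by 0.10 ± 0.02 (adjusted p = 0.00221), its 0 min mean of 11.44 lying with the late times and its means at 30, 60 and 120 min at 11.31, 11.37 and 11.34. Atic was higher by 0.05 ± 0.02 (adjusted p = 0.0382), a call lost with a replicate block (0.0665) or with both displaced arrays left out (0.0546). Leaving out 1 array also ended it for replicate 1 of 30, 60, 120, 360, 480 or 600 min, replicate 2 of 120 or 480 min and replicate 3 of 60 or 360 min (0.0533 to 0.0866). Gart (-0.01) and Cad (-0.08) were not called, although Cad was with replicate 1 of 600 min left out (-0.12, adjusted p = 0.0434). This comparison shares its late and early arrays with those above, and in it too time after spermidine and time in culture cannot be told apart.

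Profiles of the 5 genes that varied with time by the F-test ran in opposite directions, Gmps, Umps and Ppat against Adsl and Ctps. Over the 24 arrays Gmps and Umps had a Pearson r of 0.88, Adsl and Ctps of 0.82 and Ppat and Gmps of 0.72, while Gmps had an r of -0.80 with both Ctps and Adsl. Of the 36 pairs 23 had an r above 0, with a median of 0.15. Outside the list, the gene most like Gmps was Spin1 (r = 0.96) and that most like Umps was Atm (0.96). Those most like Ctps, Adsl and Ppat were Ppp1r10 (0.93), Zfp414 (0.93) and Phf13 (0.85). For Gart, Paics, Atic and Cad the highest r was with Vmn1r4 (0.75), Slc44a2 (0.86), Nubp1 (0.80) and Myh10 (0.87). Over the 8 time means these last pairs had an r of 0.45, 0.89, 0.89 and 0.94. Each partner outside the list was picked as the highest r among all other genes, so a high r is built into the choice. All of these are descriptions over 24 arrays that share 8 times.

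Of 6 other de novo enzymes measured, Ctps2 rose, Dhodh fell, and Pfas, Adss, Adssl1 and Impdh1 did not pass the test at 360, 480 or 600 min. Between late and early times Adss was called lower (-0.10 ± 0.04, adjusted p = 0.0314), and Pfas, Adssl1 and Impdh1 were not called. Ctps2, the second CTP synthase, went from 7.90 ± 0.07 at 0 min to 8.28 ± 0.04 at 360 min and 8.36 ± 0.08 at 600 min (SD, n = 3), a rise of 0.37 ± 0.06 and then 0.46 ± 0.06 (adjusted p = 2.97e-04 and 1.54e-05). Ctps and Ctps2 thus moved in opposite directions, each by its own test. Dhodh, the mitochondrial dehydrogenase between Cad and Umps, went from 5.80 ± 0.10 to 5.28 ± 0.12 at 360 min and 4.95 ± 0.16 at 600 min. This was a fall of -0.52 ± 0.10 and then -0.85 ± 0.10 (adjusted p = 0.00102 and 2.89e-06), while Umps after it was higher. At 240 min Dhodh was not called (-0.24, adjusted p = 0.262), but it was with both displaced arrays left out (-0.35, 0.0479). Impdh1, the measured isozyme of the missing Impdh2, was at -0.01 ± 0.06 in the 360 min group and 0.04 ± 0.06 in the 600 min group (adjusted p = 0.960 and 0.771). Taking all 15 measured de novo enzymes, 4 rose and 3 fell at 360 min, where 8.47% of all genes rose and 10.5% fell, and 3 rose and 3 fell at 600 min (11.2% and 15.7% of all genes).

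PRPP is the shared substrate of both pathways. Its synthetase genes Prps1 and Prps2 were measured, with the synthetase-associated protein genes Prpsap1 and Prpsap2. Of these 4, 3 rose and 1 fell at 480 min (9.73% and 14.5% of all genes), and 2 rose and 1 fell at 600 min (11.2% and 15.7%). The synthetase genes themselves split at 480 min, with Prps2 at 0.24 (adjusted p = 0.00120) and Prps1 at -0.21 (0.00355). Prps2, a PRPP synthetase, rose by 0.31 ± 0.05 at 600 min (adjusted p = 8.97e-05) and its isozyme gene Prps1 fell by 0.22 ± 0.05 (adjusted p = 0.00226). Prpsap2, a synthetase-associated protein gene, rose by 0.80 ± 0.12 (adjusted p = 2.94e-05). Prpsap1 rose by 0.23 at 360 min (adjusted p = 0.0216) and by 0.24 at 480 min (0.0139) and was not called at 600 min (0.15, adjusted p = 0.112).

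**Figure D3:**
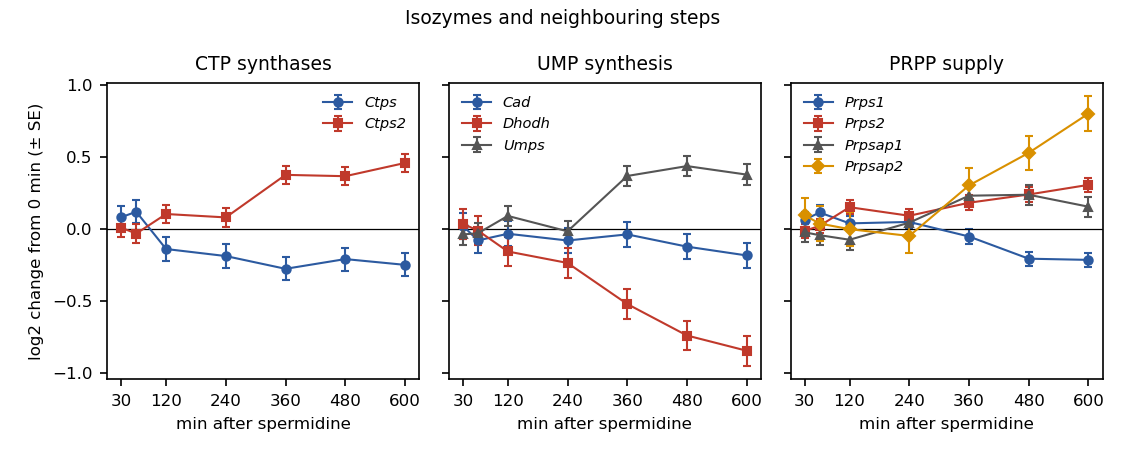
Log2 change from 0 min (vertical axis, ± SE of the model) against minutes after spermidine. Panels hold the CTP synthase genes, the genes of UMP synthesis, and those of PRPP synthetases and their associated proteins (PRPP supply). At 600 min Ctps2 is higher and Ctps lower than at 0 min, Dhodh has declined to -0.85 with Umps higher, and Prps1 is lower with Prps2 and Prpsap2 higher.

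Genes of folate and serine metabolism bear on the carbon units that the Gart and Atic steps use, and not all of them encode enzymes that give such units. Of 13 measured, 2 rose and 3 fell at 360 min (8.47% and 10.5% of all genes), and 2 rose and 6 fell at 600 min (11.2% and 15.7%), with a median change of -0.13 at 600 min. With a replicate block 1 rose and 6 fell at 600 min. Mthfd2, the mitochondrial folate dehydrogenase, fell by 1.05 ± 0.22 (adjusted p = 9.77e-04) and Psph, of serine synthesis, by 0.78 ± 0.13 (7.44e-05). Aldh1l2 fell by 0.59 ± 0.09 (3.74e-05) and Shmt2 by 0.37 ± 0.08 (0.00101). Among regulators known to act on nucleotide or folate genes, Myc fell by 0.62 ± 0.14 at 600 min (adjusted p = 0.00136) and its partner Max by 0.22 ± 0.07 (0.0216). Atf4, which drives serine and mitochondrial folate genes, fell by 1.33 ± 0.17 (5.20e-06), and E2f1, of the S phase programme, rose by 0.85 ± 0.14 (1.17e-04). Their part in the changes of the 9 genes, or of the folate and serine genes, was not tested.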

How the data were processed

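The authors deposited log2 values, 1 per probe set and array, for 24 Affymetrix MoGene 1.0 ST arrays, made from 200 ng of total RNA per the labels. The submitters' processing notes name Partek and RMA, whose versions were not given. The log2 scale was inferred from the range of the values. Replicate numbers had equal means for every gene (largest gap 8.75e-05), so a replicate effect had been removed before deposit and p-values are somewhat too small.

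Of 35399 probe sets, 21789 had 1 gene symbol, 1621 several and 11989 none here, and the probe set with the highest mean stood for each of 19938 genes. A mean per time was fitted with limma 3.58.1 (R 4.3.3, 16 residual degrees of freedom), with Benjamini-Hochberg adjustment over all genes in each comparison. The model was tested on simulated data with independent noise. These had no displaced arrays and no removed replicate effect, so that run does not bear on either. Alternatives were a replicate block, arrays left out, quantile normalization, a low-mean filter, a trended robust prior, averaged probe sets and fits to the compared arrays only. Values are given ± SE for changes and ± SD for means.

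Members and gene lists were chosen with earlier results of these data known. Named were all members, other de novo and PRPP genes, at most 4 genes from every further list (smallest F-test p), the gene most correlated with each member, and genes starting within 1000 bases on the other strand. Promoters came from RefSeq, build GRCm38.p6.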

Additional observations from a re-analysis of the deposited data

How the results depend on the processing

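The replicate block left the counts of members called against 0 min at 5, 3 and 4 at 360, 480 and 600 min, as without it, and ended 1 member call, that of Atic between late and early times, which left 6 of 7. Same-numbered arrays had correlations of their deviations between -0.533 and 0.182, which cannot show pairing because the replicate effect had been removed before deposit, so whether the numbers mark sets of samples was not settled. Leaving out each array in turn gave 4 to 5 members at 360 min, 2 to 4 at 480 min, 3 to 4 at 600 min and 6 to 7 between late and early times. With replicate 3 of 120 min and of 240 min both left out, 1 member (Ctps) was called at 240 min in place of 0. A fit to only the arrays compared gave 1 call (Ppat) between neighbouring times in place of 3, with adjusted p of 0.0670 for Gmps and 0.0536 for Umps from 240 to 360 min. That fit has fewer arrays, and it also ended the calls of Adsl at 480 min (0.0586), Ctps at 600 min (0.0529) and Atic between late and early times (0.0667). The low-mean filter and the trended robust prior ended that of Atic (0.0894 and 0.123) and added Ctps at 480 min (0.0396 and 0.0492). Quantile normalization ended that of Ctps at 600 min (0.0582). No called change of a member turned its direction under any alternative run, and the calls of Ppat, Gmps, Umps and Adsl at 360 min and of Gmps, Umps and Adsl at 600 min held under all of them. Having 3 arrays per time limits what can be seen: the intervals of Gart, Paics and Atic against 0 min reach down to -0.18, -0.21 and -0.14.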

Other observations

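Genes that reuse or pass on nucleotides were measured on the same arrays. Of 9 measured genes of pyrimidine salvage and breakdown, 0 rose and 4 fell at 600 min, where 11.2% and 15.7% of all genes did. These were the uridine kinase genes Uck1 (-0.57 ± 0.12), Uck2 (-0.41 ± 0.08) and Uckl1 (-0.63 ± 0.13) and Uprt (-0.65 ± 0.10), with limma adjusted p of 8.43e-04, 7.81e-04, 7.54e-04 and 4.72e-05. Of 4 nucleotide kinase genes, Nme1 fell by 0.59 ± 0.04 (adjusted p = 1.88e-09) and Guk1, guanylate kinase, by 0.80 ± 0.09 (9.84e-07), while Nme2 (-0.12, adjusted p = 0.0586) and Cmpk1 (-0.31, 0.0678) were not called. With replicate 3 of 120 min and of 240 min left out both were (0.0433 and 0.0471).

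Of 10 genes of purine salvage and breakdown, 3 rose and 2 fell at 600 min, where 11.2% and 15.7% of all genes did, and with a replicate block 3 rose and 1 fell. Ampd3, an AMP deaminase gene, rose by 1.01 ± 0.12 (adjusted p = 1.55e-06) and the nucleotidase gene Nt5c2 by 0.56 ± 0.06 (6.40e-07). Aprt, which salvages adenine, fell by 0.36 ± 0.09 (adjusted p = 0.00247), and Pnp was at -0.17 (0.259). Among 10 genes of deoxynucleotide supply 7 rose and 2 fell at 600 min, against the same shares of all genes, with a median change of 0.61 against -0.05 for the 9 de novo genes and 0.0055 for all genes. Thymidine kinase, Tk1, rose by 2.12 ± 0.14 (adjusted p = 1.01e-09), the ribonucleotide reductase gene Rrm2 by 1.25 ± 0.15 (1.74e-06) and Samhd1, which breaks deoxynucleotides down, by 0.65 ± 0.07 (4.37e-07), while Dctd fell by 0.48 ± 0.07 (2.88e-05).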
